A study of Mus musculus with 29 samples.

Results

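The data analysed here are 655 regions of open chromatin that were open in both types of cone and in no other population sorted from the adult mouse retina, out of 110715 regions in the ATAC-seq count table. ATAC-seq marks accessible DNA by the insertions of a transposase. Each region is 200 bp long, and a population was called open at a region when its midpoint lay in a peak of both libraries of that population, and closed when it lay in a peak of neither. Blue cones and green cones had to be open, and rods, pan-BC (all bipolar cells), ON-BC and OFF-BC closed. The peaks therefore chose the regions, and ATAC-seq levels of cones against the other 4 populations are given below as a description, without a test.

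The study compared photoreceptors with bipolar cells, the interneurons that receive their signals. ATAC-seq counts came from 12 libraries, 2 for each of the 6 populations, and RNA-seq counts from 15 libraries, 3 each for pan-BC, ON-BC, OFF-BC, rods and blue cones. RNA-seq of green cones was not analysed here. Peaks of 2 further ATAC-seq libraries, from green cones sorted a second time, were held back from the choice of regions.

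Bipolar cells came from mice of postnatal day 42 to 48 that carried GFP at the *Otx2* locus. The labels give *Otx2*-GFP+/- for the RNA-seq of pan-BC and *Otx2*-GFP+/-; *Grm6*-YFP+/+ for every other bipolar library. In the second genotype a YFP transgene under *Grm6* control marks ON-BC, and OFF-BC were the GFP-positive cells without YFP, sorted a second time. Since *Otx2*-GFP is also weakly present in photoreceptors, the gates of bipolar cells and photoreceptors lie next to each other. Rods (*Nrl*-eGFP), blue cones (*Nrl*-eGFP;NrlKO) and green cones (*Opn1mw*-GFP) were taken at postnatal day 56, in previous work by that laboratory. Blue cones are here the photoreceptors of mice without *Nrl*, a transcription factor needed for the rod fate, and serve as a stand-in for native blue cones. Cell class, study and age cannot be told apart in any comparison of photoreceptors with bipolar cells.

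Cones carry vision in bright light and colour vision. Mouse cones express a short-wavelength opsin, a middle-wavelength opsin or both, and share a set of transduction proteins that differ from those of rods. Their genes are known to be regulated by homeodomain factors with a lysine at the residue that names the K50 class, such as CRX and OTX2, by factors of the Q50 class with a glutamine there, such as RAX, and by nuclear receptors, among them RXRG and the thyroid hormone receptor THRB.

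The DNA of 10 of the regions is printed here, on the plus strand of GRCm38. The first 4 lie nearest to cone genes. Capitals mark exact matches, on either strand, to 5 words: GGATTA (K50), TAATTA or TAATTG (Q50), TAATNNNATTA (TAAT and ATTA with any 3 bases between them), AGGTCA (nuclear receptor half-site) and TGANTCA (AP-1, the word of FOS and JUN proteins).
Cnga3, chr1:37230554-37230753, intron of *Cnga3*, 11449 bp into the gene: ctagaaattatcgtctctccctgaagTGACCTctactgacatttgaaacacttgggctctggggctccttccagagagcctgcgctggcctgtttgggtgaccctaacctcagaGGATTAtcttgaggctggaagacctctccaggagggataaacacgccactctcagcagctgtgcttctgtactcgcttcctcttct
Rxrg, chr1:167599957-167600156, intron of *Rxrg*, 1695 bp into the gene: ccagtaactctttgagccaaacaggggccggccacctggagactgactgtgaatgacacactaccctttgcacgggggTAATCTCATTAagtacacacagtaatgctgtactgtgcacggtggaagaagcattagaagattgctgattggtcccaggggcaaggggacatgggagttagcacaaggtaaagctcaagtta
Slc24a2, chr4:87201693-87201892, intron of *Slc24a2*, 26170 bp into the gene: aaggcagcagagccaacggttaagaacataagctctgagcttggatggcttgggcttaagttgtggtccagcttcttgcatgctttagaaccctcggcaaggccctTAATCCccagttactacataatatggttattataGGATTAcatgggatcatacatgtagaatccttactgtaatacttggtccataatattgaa
Opn1sw, chr6:29365419-29365618, intron of *Calu*, 14994 bp from the TSS of *Opn1sw*: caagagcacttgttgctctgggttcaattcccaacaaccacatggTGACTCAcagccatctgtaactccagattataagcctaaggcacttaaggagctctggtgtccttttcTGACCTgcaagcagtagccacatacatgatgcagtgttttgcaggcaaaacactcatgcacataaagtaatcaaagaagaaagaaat
The next 5 are among the 8 regions with the highest fold enrichment in the double-sorted green cone libraries, which did not choose the regions, and the last lies at a promoter.
Gm35695, chr2:178743785-178743984, intergenic, 84524 bp from its TSS: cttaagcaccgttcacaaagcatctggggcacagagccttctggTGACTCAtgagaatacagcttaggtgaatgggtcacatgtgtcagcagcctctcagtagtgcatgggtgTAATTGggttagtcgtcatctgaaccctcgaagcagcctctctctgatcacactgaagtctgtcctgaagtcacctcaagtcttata
Gm8633, chr10:98555292-98555491, intergenic, at -203525 bp from its TSS: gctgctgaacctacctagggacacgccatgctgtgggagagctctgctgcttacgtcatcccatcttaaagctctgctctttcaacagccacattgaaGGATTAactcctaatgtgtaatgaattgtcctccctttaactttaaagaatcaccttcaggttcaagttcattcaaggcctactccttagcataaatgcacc
Manf, chr9:106908766-106908965, intron of *Dock3*, at -16928 bp from the TSS of *Manf*: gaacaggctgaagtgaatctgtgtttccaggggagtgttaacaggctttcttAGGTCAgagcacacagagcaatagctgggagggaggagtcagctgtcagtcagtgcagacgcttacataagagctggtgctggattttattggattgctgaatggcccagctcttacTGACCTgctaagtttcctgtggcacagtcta
Dpysl4, chr7:139030591-139030790, intron of *Jakmip3*, at -55310 bp from the TSS of *Dpysl4*: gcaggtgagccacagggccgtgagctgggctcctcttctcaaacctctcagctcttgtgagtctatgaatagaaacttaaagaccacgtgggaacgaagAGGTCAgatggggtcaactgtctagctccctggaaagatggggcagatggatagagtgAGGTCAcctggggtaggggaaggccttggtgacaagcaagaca
Msx1, chr5:37835953-37836152, intergenic, at -11468 bp from its TSS: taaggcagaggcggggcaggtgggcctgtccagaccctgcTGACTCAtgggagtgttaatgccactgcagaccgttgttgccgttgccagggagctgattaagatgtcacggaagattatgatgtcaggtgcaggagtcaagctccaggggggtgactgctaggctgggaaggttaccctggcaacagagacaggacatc
Irf5, chr6:29529102-29529301, at the promoter of *Irf5*, at -80 bp from its TSS: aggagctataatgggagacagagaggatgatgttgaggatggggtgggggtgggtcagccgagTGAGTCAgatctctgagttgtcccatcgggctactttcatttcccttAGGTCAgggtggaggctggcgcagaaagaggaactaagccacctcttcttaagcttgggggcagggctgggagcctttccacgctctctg
The 4 printed regions at cone genes show different words. There is a K50 and a nuclear receptor word at *Cnga3* and 1 paired TAAT and ATTA word at *Rxrg*. *Slc24a2* has 2 K50 words, and *Opn1sw* a nuclear receptor and an AP-1 word. The promoter region of *Cnga3*, not printed, held none of these words. Each printed region holds at least 1 of the 5 words, and so the print is not a fair sample. The regions of *Dab1*, *Zfp746* and *Tshz2* (at -118 bp), also not printed, held none.

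ATAC-seq libraries held 4176776 to 12345845 reads counted in regions, and RNA-seq libraries 12329548 to 26266746 reads counted in genes. The deposited values are these counts divided by 1 size factor for each library and are called normalized counts here. At an ATAC-seq count of 0, up to 3 reads are possible, which corresponds to 1.71 to 4.48 normalized counts by library. The study calls its bipolar libraries biological replicates, and the labels give different ages to libraries within each bipolar population. The photoreceptor libraries share 1 age, and whether they came from separate mice is not given in the labels. P-values measure the spread between these libraries, which may be technical for photoreceptors. RNA of *Nrl* was 657, 764 and 486 normalized counts in the blue cones and 11476, 16599 and 14469 in rods, with reads counted over the whole gene. The 8 cone markers summed to 1501640 to 1726190 normalized counts in blue cones, 10852 to 10968 in rods, 44754 to 70999 in pan-BC, 5120 to 5912 in ON-BC and 29991 to 104776 in OFF-BC, and none of the 8 was at 0 in all OFF-BC libraries. The 6 rod markers summed to 1750640 to 2409810 in rods and 167840 to 258079 in blue cones, and the 8 bipolar markers to 119203 to 194759 across the bipolar libraries, 1491 to 2076 in rods and 26398 to 30750 in blue cones. Lists for Müller glia, amacrine, ganglion and horizontal cells, microglia, endothelium and pigment epithelium each summed to at most 3406 in every library. Among them, the 4 microglia markers summed to 163 to 293 normalized counts in blue cones, 39.8 to 63.8 in rods and 6.38 to 18.2 in pan-BC, higher in blue cones without overlap. Markers of cones and rods in bipolar libraries, and of bipolar cells and microglia in blue cones, therefore stand beside the results below, and their part in them was not tested. In such bulk libraries, fewer cells of a type and less RNA per cell cannot be told apart.

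At the 655 regions, cone libraries stood well above the others. The median ATAC-seq level was 37.6 and 39.0 normalized counts in the 2 blue cone libraries and 40.7 and 47.9 in the 2 green cone libraries. It was 4.67 and 5.42 in rods, 6.40 and 5.70 in pan-BC, 2.99 and 2.93 in ON-BC and 10.8 and 11.7 in OFF-BC. All 4 cone values lay above the 8 others at 610 of the 655 regions (4.73% of all regions showed this, and the rule used the same peaks), and the values overlapped at 45. The mean over the 4 cone libraries ranged from 19.3 to 183 normalized counts, with a median of 43.1, against a median of 6.70 for the mean over the other 8 libraries.

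**Figure D1:**
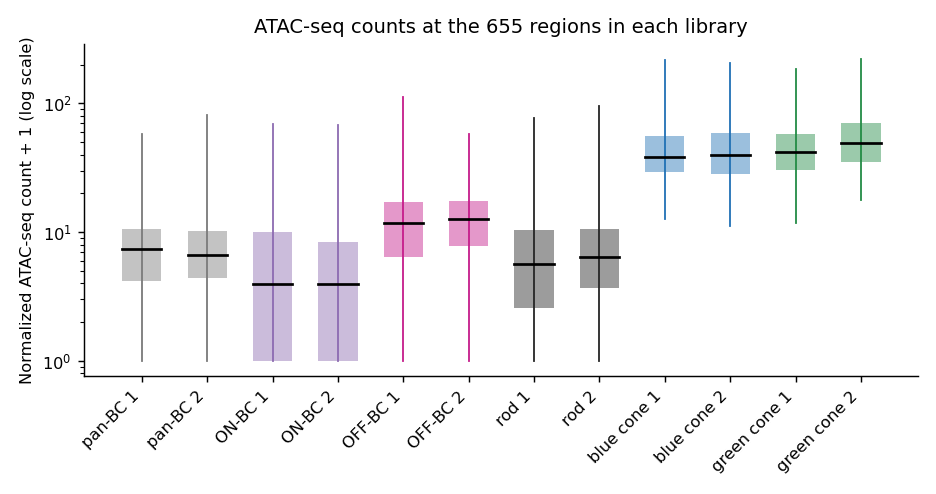
Normalized ATAC-seq count plus 1 (log scale) at the 655 regions in each of the 12 libraries. Boxes span the quartiles, black lines are medians and thin lines reach the lowest and highest value. Cone medians lie between 37.6 and 47.9 normalized counts, and the OFF-BC medians of 10.8 and 11.7 are the highest among the closed populations.

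A region without a peak is not a region without reads. In OFF-BC the median level was 25.0% and 27.1% of the median cone level, in pan-BC 14.9% and 13.2%, in rods 10.9% and 12.6%, and in ON-BC 6.93% and 6.80%. OFF-BC had the highest mean of the 4 closed populations at 425 regions, rods at 125, pan-BC at 54 and ON-BC at 51. At 169 and 185 of the regions the ON-BC libraries held no read at all, compared with 25 and 10 for OFF-BC. The highest value of a region in a closed library was 110.5 normalized counts, in OFF-BC replicate 1.

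The rule is a threshold on peaks, and 527 further regions missed it by a single library: both cone types were open and 1 of the 8 closed libraries had a peak. That library was an OFF-BC library at 265 regions, a rod library at 174, a pan-BC library at 74 and an ON-BC library at 14. Just outside the rule, the median OFF-BC level was 21.6 normalized counts where an OFF-BC library had the peak, against 10.97 at the 655 regions. For rods the corresponding medians were 16.5 and 5.05, for pan-BC 16.6 and 5.88, and for ON-BC 21.1 and 4.42. Without blue cone replicate 1 the rule chose 1176 regions, and without green cone replicate 2 it chose 1021.

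Cone peaks at the 655 regions were weaker and narrower than at the 31275 regions open in both cone types wherever else these were open. The median fold enrichment of the peak was 6.25 and 9.59 in the blue cone libraries, and 7.56 and 6.42 in those of green cones. Over all regions open in both cone types it was 11.7 and 16.1 for blue and 12.6 and 10.2 for green cones. The median peak width was 271 and 322 bp for blue and 340 and 294 bp for green cones, against 370, 412, 445 and 386 bp. These values belong to peaks that chose the regions and are a description.

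The double-sorted green cone libraries gave a measurement of the same cell type that the rule did not use. A peak covered the midpoint of 530 of the 655 regions (80.9%) in replicate 3 and of 352 (53.7%) in replicate 4. Both replicates had a peak at 322 regions (49.2%) and neither at 95 (14.5%). Among all regions the share with both was 24.0%, among the 1108 regions open in green cones alone 25.9%, among the 731 open in blue cones alone 1.23%, among the 1525 open in rods and both cone types alone 42.0%, and among the 2390 open in rods alone 0.167%. Over the 31275 regions open in both cone types, wherever else they were open, it was 74.9%. Replicate 4 held 29410 peaks, the fewest of all ATAC-seq libraries, and replicate 3 held 43221.

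Regions with both double-sorted peaks had higher levels in the single-sorted green cones. Their median was 51.5 and 56.3 normalized counts, against 31.5 and 39.4 where neither double-sorted library had a peak. In blue cones the medians were 41.4 and 40.8 with both peaks and 44.0 and 39.7 with neither, so the levels of blue cones were close in the 2 sets. The double-sorted fold enrichment was highest at an intronic region of *Dab1* (chr4:103709856-103710055, 90456 bp into the gene), which encodes the reelin adaptor DAB1. There the enrichment was 20.3 and 14.6, with 101 and 135 normalized counts in green cones, 41.4 and 20.2 in blue cones and at most 10.8 in any closed library. The other 7 of the 8 regions lay nearest to *Gm35695*, *4930545L08Rik*, *Gm8633*, *Manf*, *Dpysl4*, *Zfp746* and *Msx1*. *Manf* encodes a neurotrophic factor of the endoplasmic reticulum, and its region was as high in blue cones (124 and 155) as in green cones (113 and 146). *Msx1* encodes a homeodomain transcription factor, and its region had normalized counts of 99.7 and 113 (blue cones) and 69.2 and 123 (green cones). At *Dpysl4*, of the collapsin response mediator family, green cones stood higher (109 and 97.2) than blue cones (28.5 and 26.7), without overlap.

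Between the 2 cone types limma called no region. The rule asked for peaks in both, and so limits how far they can differ: the median log2 fold change, green over blue, was -1.52 at regions open in blue cones alone and 2.18 at regions open in green cones alone. The counts of calls that follow are therefore a description and no test of whether the cone types differ. Limma called 0 of the 655 regions higher in green cones and 0 lower, where 0.0627% of the 108448 regions tested were called higher and 0.0277% lower. At an unadjusted p under 0.05 there were 3 regions, edgeR called 1 region in each direction (0.153%, against 0.555% of all regions tested higher and 0.289% lower), and DESeq2 called 0 (0.0682% and 0.0267% of all). Green cones had the higher mean at 389 of the 655 regions, and the median log2 fold change was 0.15, against 0.13 over all regions tested. At *Dpysl4* the log2 fold change was 1.86 ± 0.69 (SE) and at *Dab1* 1.98 ± 0.76. With 2 libraries for each cone type limma also had limited reach in simulated counts of this comparison. There it called 17 of 100 regions changed 4-fold and 80 of 100 changed 16-fold. These regions were drawn from all regions tested, at their mean level over all libraries, and the reach at the levels of the 655 regions was not simulated.

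The regions lay mostly away from promoters. Of the 655, 357 were intronic (54.5%) and 277 intergenic (42.3%), while 9 lay in coding exons, 3 in 5′ UTRs, 6 in 3′ UTRs and 3 in exons of non-coding transcripts. Promoters, taken as the 1000 bp before a TSS and the 100 bp after it, held 20 (3.05%), compared with 14.9% of all regions and 57.3% of the 18236 regions open in all 6 populations. The share was 5.06% for regions open in blue cones alone, 2.08% for green cones alone, 5.84% for rods and both cone types, and 2.80% for rods alone. The median distance to the nearest TSS was 25730 bp, against 20505 bp over all regions, and 216 regions (33.0%) lay more than 50000 bp away.

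The regions were scattered over the genome. They fell on 20 chromosomes, with 3 to 54 on each, and the median distance from a region to its nearest neighbour among the 655 was 543307 bp. Only 16 of the 655 lay within 1000 bp of another and 26 within 10000 bp. The nearest TSS by RefSeq belonged to 587 genes, of which 46 were nearest to 2 regions and 11 to 3 regions, and no gene was nearest to 4 or more. *Sh3bp4* and *Tshz2* were among the 11.

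Homeodomain words were common in the regions. GGATTA, the K50 word bound by CRX and OTX2, was present in 40.0% of the 655 regions and in 21.8% of all 110715 regions. TAATTA or TAATTG, the Q50 words, were present in 25.5% and 11.4%. At least 1 of these K50 or Q50 words occurred in 361 regions (55.1%), compared with 29.9% of all regions. The paired word TAATNNNATTA was found in 3.82% and 0.978%. Words were searched as exact letters on both strands, and a match is not evidence of binding.

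The other words split by class. The nuclear receptor half-site AGGTCA was present in 24.0% of the regions and 15.6% of all regions, and the AP-1 word TGANTCA in 16.03% and 7.09%. E-boxes were no more frequent than over all regions, with CAGATG, the word of NEUROD1, in 19.7% and 22.3%, and CAGCTG in 16.2% and 18.03%. The MAF half-site TGCTGAC (4.58% and 4.35%) and the MEF2 word CTANNNNTAG (4.73% and 3.999%) were near the level of all regions. The CTCF core word AGGGGGC (2.14% and 7.07%) and the GC box GGGCGG (7.18% and 16.9%), a word of promoters, were scarcer. None of the 11 words occurred in 81 of the regions (12.4%), against 21.5% of all regions.

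Base composition differed, and the shares were also taken at a matched composition. The mean GC content was 48.6% ± 6.80 (SD, n = 655), against 51.95% ± 10.1 over all regions. Within GC contents of 44.5% to 51.5%, which held 337 of the 655 regions and 39815 of all, the K50 word was present in 43.6% and 27.9%, the Q50 words in 25.8% and 13.1%, the nuclear receptor word in 23.4% and 18.8% and the AP-1 word in 16.02% and 8.33%. For these words the order of the shares was thus the same as without the matching. The GC box was at 2.67% and 3.84%, closer together than the 7.18% and 16.9% without it. CAGATG was at 18.7% and 26.1%, further apart than without it (19.7% and 22.3%). CAGCTG was at 14.8% and 18.4%, and the CTCF word at 1.19% and 4.51%.

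Set beside regions open in 1 cone type alone, the shared regions lay between them for several words. The Q50 words were present in 31.9% of regions open in blue cones alone and 10.9% of those open in green cones alone. The AP-1 word went the other way, with 3.56% for blue cones alone and 30.8% for green cones alone, and so did the nuclear receptor word, with 16.1% and 31.4%. For the K50 word the shares were 35.2% and 26.9%, below the 40.0% of the shared regions. Regions open in rods and both cone types alone had 47.1% and regions open in rods alone 36.9%. In the same order, these held the nuclear receptor word at 21.8% and 23.2%, near the 24.0% of the shared regions. They held the paired word at 3.87% and 1.76%, against 3.82%. The Q50 words were at 16.7% and 9.75% there, and the AP-1 word at 6.82% and 5.56%, below the shared regions. The E-boxes were also lower there, with CAGATG at 14.95% and 15.1% against 19.7%, and CAGCTG at 13.1% and 10.2% against 16.2%. For blue cones alone and green cones alone, CAGATG was at 21.6% and 21.03%, and CAGCTG at 12.7% and 17.1%. Shared regions with the AP-1 word had a median level of 49.7 normalized counts in green cones, against 43.3 without the word, and 38.5 against 38.9 in blue cones. With a Q50 word the medians were 41.0 against 45.5 in green cones and 41.5 against 37.5 in blue cones.

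**Figure D2:**
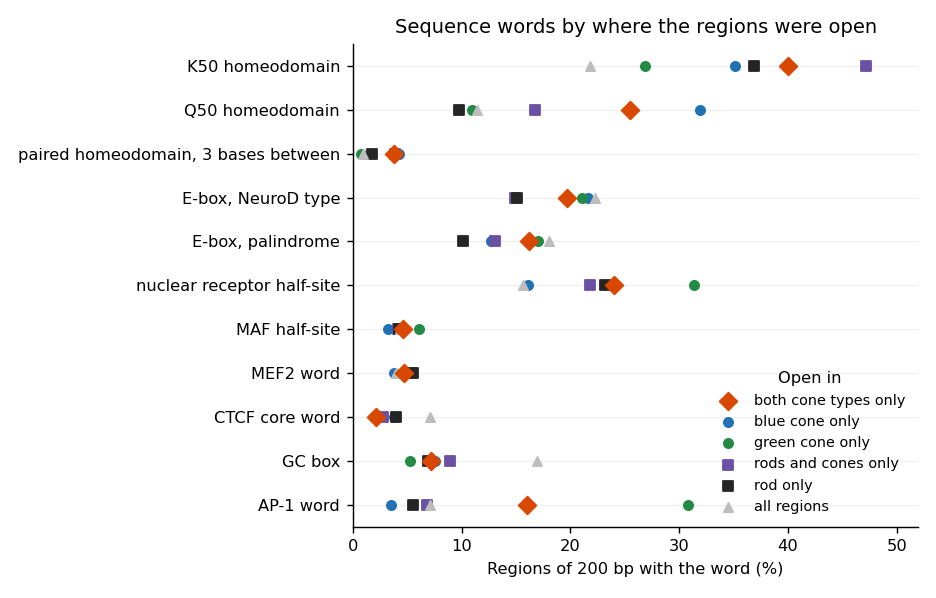
Share of 200 bp regions that hold each of 11 sequence words, in percent, by the populations in which the regions were open. The 655 regions open in both cone types only (orange diamonds) lie right of all regions (grey triangles) for the K50 word (40.0% and 21.8%), the Q50 words (25.5% and 11.4%), the nuclear receptor half-site (24.0% and 15.6%) and the AP-1 word (16.03% and 7.09%), and left of them for the CTCF word and the GC box.

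The rule did not use RNA, and a larger share of the nearest genes than of all genes was called higher in blue cones than in rods. Of the 587 nearest genes 530 were in the RNA table, and 386 of these passed a filter on low counts and were tested. Limma called 124 of the 386 higher in blue cones than in rods (32.1%, against 11.3% of the 14024 genes tested) and 20 lower (5.18%, against 4.63%). The filter keeps a gene that is high in any 1 population, so these shares are of genes that passed it and not of all 587. The median log2 fold change, blue cones over rods, was 0.56, against 0.00 over all genes tested, and with genes at 0 in one population set to the bound given by 3 reads it was 0.59 against 0.01. Genes nearest to regions open in blue cones alone were called higher at 29.3%, in green cones alone at 20.2%, in rods and both cone types alone at 11.4% and in rods alone at 6.22%.

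The share was larger where region and gene lay closer together. Where the region lay within 50000 bp of the TSS, 101 of 269 genes tested were called higher than in rods (37.5%), and beyond that distance 30 of 128 (23.4%). Where the region lay in an intron of its nearest gene, the count was 75 of 180 (41.7%), and at promoters 5 of 12. Genes near regions with both double-sorted green cone peaks were called at 32.6%, and those near regions with neither at 29.2%. These subsets share genes and were not tested against each other.

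The comparison with bipolar cells was less one-sided. Of the 386 nearest genes, 108 were called higher in blue cones than in pan-BC (27.98%, against 13.7% of all genes tested) and 73 lower (18.9%, against 22.7%). The median log2 fold change was 0.30, against -0.16 over all genes tested. A larger share than of all genes was not particular to these regions. Genes nearest to regions open in rods and both cone types alone were called higher than in pan-BC at 26.3%, with a median of 0.42. The share was 21.5% for green cones alone, 20.3% for blue cones alone and 19.6% for rods alone. Called lower were 13.8%, 22.9%, 24.2% and 16.5%, in that order. With scaling to the library total, the median over all genes fell to -0.44 and that of the nearest genes to 0.02. Under it 92 genes were called higher (23.8%, against 10.4% of all genes tested) and 87 lower (22.5%, against 26.4%). Both comparisons share the blue cone libraries. Called higher in blue cones than in both rods and pan-BC were 46 genes (11.9%, against 2.74% of all genes tested), and called lower than in both were 3 (0.777%, against 1.27%).

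**Figure D3:**
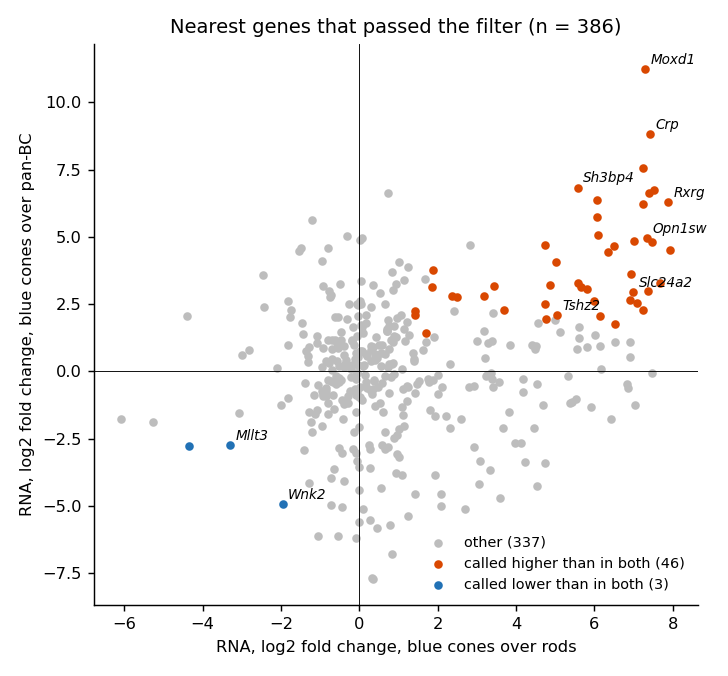
RNA log2 fold change of blue cones over rods (horizontal) and over pan-BC (vertical) for the 386 nearest genes that passed the filter. Orange points are the 46 genes called higher in blue cones than in both, blue points the 3 called lower than in both and grey points the other 337. The orange points reach a log2 fold change of 11.23 over pan-BC, at *Moxd1*.

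Several of the 46 genes belong to cone function. *Cnga3*, the alpha subunit of the cyclic nucleotide-gated channel of cones, had RNA of 4631, 4943 and 4963 normalized counts in blue cones, 16.5, 49.2 and 36.7 in rods and 61.7, 51.4 and 79.5 in pan-BC. The blue cone mean was 142-fold the rod mean (log2 fold change 7.24 ± 0.84, SE, limma adjusted p = 1.1e-05) and 75.5-fold the pan-BC mean. *Cnga3* had a pair of the regions, at -38 bp and at 11449 bp from its TSS. The promoter region (chr1:37219067-37219266) had 67.3 and 97.6 normalized counts in blue cones, 75.3 and 85.9 in green cones and 16.4 and 9.49 in rods, and the intronic region, whose DNA is printed above, had 63.5 and 51.3, 108 and 148, and 1.56 and 1.36. Neither region overlapped between cones and rods, whose peaks chose the regions. Both had peaks in both double-sorted libraries, which the rule did not use.

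*Rxrg*, the retinoid X receptor partner of thyroid hormone receptor in cones, had RNA of 4179, 4430 and 4260 normalized counts in blue cones, 13.6, 16.4 and 22.7 in rods and 76.6, 19.2 and 104 in pan-BC. The blue cone mean was 244-fold the rod mean (log2 fold change 7.88 ± 0.75, SE, limma adjusted p = 8.6e-07). Its intronic region, with the paired homeodomain word, had 105 and 123 normalized counts in blue cones, 85.3 and 69.0 in green cones and 7.79 and 8.13 in rods. In RNA, blue cones stood above rods at *Rxrg* without overlap. The ATAC-seq levels did too, but the rule chose the region by peaks in blue cones and none in rods.

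*Slc24a2*, the sodium/calcium-potassium exchanger of cones, had RNA of 3637, 2984 and 2704 normalized counts in blue cones, 22.3, 24.6 and 22.7 in rods and 404, 432 and 362 in pan-BC. The blue cone mean was 134-fold that of rods and 7.78-fold that of pan-BC (limma adjusted p = 2.7e-14 and 3.3e-08). Its region was modest, with normalized counts of 38.9 and 46.3 (blue cones) and 31.5 and 56.3 (green cones), and no peak in either double-sorted library. *Opn1sw*, the short-wavelength opsin, had RNA of 1108420, 1302220 and 1256120 normalized counts in blue cones and 7389, 7590 and 7453 in rods, a difference of 163-fold (limma adjusted p = 3.7e-07). The region nearest to its TSS lies inside *Calu*, a gene of a calcium-binding protein of the endoplasmic reticulum, and had only 28.5 and 22.4 normalized counts in blue cones, and 36.9 and 33.8 in the green cone libraries.

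These 3 genes, *Cnga3*, *Slc24a2* and *Opn1sw*, were the only ones of a list of 20 cone phototransduction genes to have a region, and they had 4 regions. Of the 20 genes, 11 were called higher in blue cones than in rods and 3 lower, and 17 higher than in pan-BC and 1 lower. Most cone phototransduction genes that were higher in blue cones thus had no region of this kind nearest to them. No gene of a list of 13 for rod phototransduction had a region. Of those 13, 0 were called higher in blue cones than in rods and 9 lower, and 6 higher than in pan-BC and 3 lower.

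Among 26 photoreceptor and cone transcription factors, *Rxrg* and *Onecut1* had a region each. Of the 23 that passed the filter, 4 were called higher in blue cones than in rods and 7 lower, and 13 higher than in pan-BC and 3 lower. *Onecut1*, known from horizontal cells and developing cones, had a region in its coding exon (chr9:74862283-74862482) with 51.8 and 41.2 normalized counts for blue cones, 50.7 and 54.9 for green cones, and peaks in both double-sorted libraries. Its RNA did not pass the filter, with 9.03, 1.52 and 14.1 normalized counts in blue cones and 0 in all 3 rod libraries.

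The genes with the largest differences against both rods and pan-BC were not mainly transduction genes. *Moxd1*, of a monooxygenase related to dopamine beta-hydroxylase, had RNA of 2051, 2470 and 2713 normalized counts in blue cones and 13.6, 16.4 and 13.0 in rods, and was at 0 in all 3 pan-BC libraries. The mean was 168-fold that of rods and at least 732-fold higher than in pan-BC, counted against 3 reads per library. *Crp*, the gene of the acute-phase protein CRP, had 396, 498 and 455 in blue cones, 4.85, 2.05 and 0 in rods and 0 in all pan-BC libraries, and was at least 136-fold higher than in pan-BC. Rods held 7 of its reads in all, and the log2 fold change over rods was 7.42, against 6.73 without rod replicate 3 and 8.01 without rod replicate 1. *Tc2n*, of a protein with tandem C2 domains, had 144, 196 and 218 in blue cones and 0 in all rod libraries, at least 60.5-fold higher. Adjusted p-values from limma against rods were 1.4e-07 for *Moxd1*, 9.8e-08 for *Crp* and 2.3e-07 for *Tc2n*.

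*Myocd*, a coactivator of serum response factor best known from muscle, had a pair of intronic regions. Its RNA was 447, 356 and 352 normalized counts in blue cones and at most 2.91 in rods and 7.34 in pan-BC. *Sh3bp4*, of an adaptor protein of endocytosis, had 3 regions (chr1:89046013-89046212, chr1:89094140-89094339 and chr1:89179169-89179368), each with peaks in both double-sorted green cone libraries. Its RNA was 712, 834 and 868 in blue cones, 14.6, 19.5 and 14.05 in rods and 3.19, 9.08 and 7.34 in pan-BC, or 50.2-fold and 123-fold by means (limma adjusted p = 6.6e-08 and 1.8e-09). For both genes every blue cone library stood far above every other library.

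Metabolic and other genes complete the 10. *Gulo*, of the last enzyme of vitamin C synthesis, had the highest level among them, with 9996, 10608 and 11660 normalized counts in blue cones, 99.9, 212 and 187 in rods and 299, 144 and 184 in pan-BC. *Agpat9* (*Gpat3* in RefSeq), of a glycerol-3-phosphate acyltransferase, had a mean of 2468 ± 186 (SD, n = 3) in blue cones, 13.6 ± 1.74 in rods and 25.4 ± 10.2 in pan-BC, and its region (chr5:100846773-100846972) lay in a coding exon, with no double-sorted peak. *Fbxw21*, of an F-box protein, had 244 ± 20.0 in blue cones, 2.73 ± 1.19 in rods and 2.74 ± 2.55 in pan-BC. Limma called all 3 higher in blue cones in both comparisons.

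**Figure D4:**
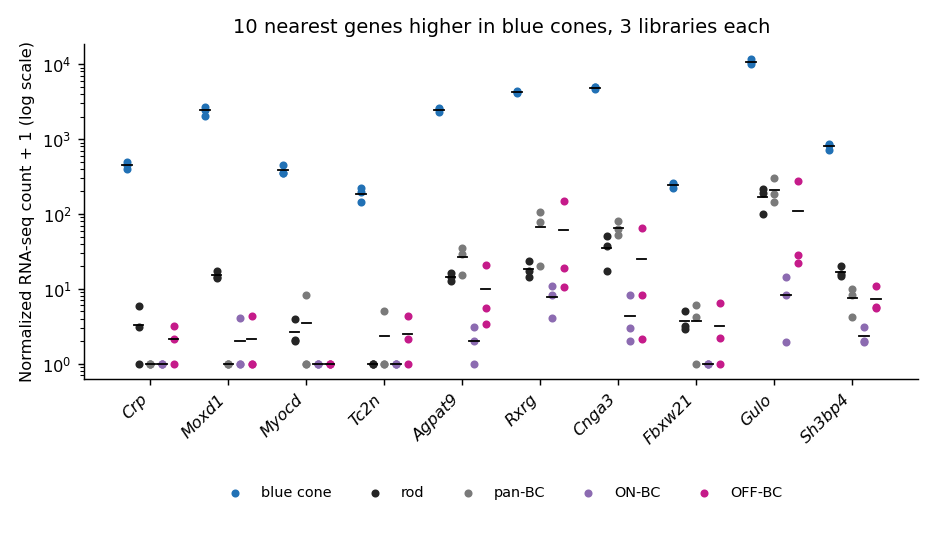
Normalized RNA-seq count plus 1 (log scale) of the 10 nearest genes with the largest difference of blue cones from both rods and pan-BC, in 3 libraries each of blue cones, rods, pan-BC, ON-BC and OFF-BC. Points are libraries and black lines are means. Every blue cone point lies above every point of the other populations for all 10 genes, and for *Rxrg*, *Cnga3* and *Gulo* the point of OFF-BC replicate 3 lies above the other 2 of OFF-BC.

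Promoter regions gave further examples. *Irf5*, of an interferon regulatory factor, had RNA of 590, 619 and 475 normalized counts in blue cones, 3.88, 0 and 5.40 in rods and 27.7, 19.2 and 12.2 in pan-BC, and was called higher in blue cones in both comparisons. *Irf5* is also known from immune cells, and the microglia markers were higher in blue cones too (163 to 293 normalized counts in all, against 39.8 to 63.8 in rods); their part in its level was not tested. Its region at -80 bp had ATAC-seq levels of 64.8 and 59.3 normalized counts for blue cones and 28.4 and 36.6 for green cones, with a single double-sorted peak. *Hcrtr1*, of an orexin receptor, had RNA of 117 ± 4.46 (SD, n = 3) in blue cones and 3.42 ± 2.37 in rods, and its region at -53 bp (chr4:130139115-130139314) had no double-sorted peak. *Tshz2*, of a zinc finger transcription factor, had 3 regions, at -118 bp, 42568 bp and 98637 bp from its TSS. Its RNA was 244, 232 and 268 in blue cones, 7.76, 4.10 and 8.65 in rods and 65.9, 53.5 and 55.1 in pan-BC, and its call against pan-BC (limma adjusted p = 0.016) was lost with scaling to the library total.

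The 3 nearest genes called lower in blue cones than in both were *4932413F04Rik*, *Mllt3* and *Wnk2*. *Mllt3*, of a subunit of transcription elongation complexes, had RNA of 82.0, 96.4 and 101 normalized counts in blue cones, 827, 1013 and 929 in rods and 628, 617 and 637 in pan-BC. Its log2 fold change was -3.29 ± 0.15 (SE) against rods (limma adjusted p = 1.2e-09). *Wnk2*, of a kinase that regulates ion transport, had 46.6, 47.0 and 41.4 in blue cones, 174, 156 and 209 in rods and 1397, 1343 and 1520 in pan-BC. *4932413F04Rik* was at 0 in all 3 blue cone libraries, against 14.6, 22.5 and 22.7 in rods, at least 8.85-fold lower. The region of *Mllt3* was intergenic, 107349 bp from its TSS, and that of *Wnk2* was intronic, 65646 bp into the gene. The region of *4932413F04Rik* lay at -5634 bp from its TSS, in an intron of *Tmem108*. The regions were thus open in cones while the gene with the nearest TSS had lower RNA in blue cones. Whether the regions act on these genes was not tested.

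Between the 2 classes of bipolar cell, both closed by the rule, levels at the regions were higher in OFF-BC than in ON-BC. The rule asked for no peak in either class, the levels there are low (a median of 2 reads in each ON-BC library), and the regions passed the filter on low counts through the cones. The counts that follow draw on libraries that the rule used and are a description. Both OFF-BC values lay above both ON-BC values at 395 of the 655 regions (60.3%, against 23.3% of all regions) and below both at 32 (4.89%, against 36.3%). Limma called 71 regions higher in OFF-BC (10.8%, against 2.80% of the 108448 regions tested) and 2 lower (0.305%, against 4.58%). The log2 fold change was above 0 at 564 regions, and its median was 1.32, against -0.15 over all regions tested. With regions at 0 in one class set to the bound given by 3 reads, and 23 regions that were under it in both left out, the median was 1.18 against -0.16. Of the 71 regions 45 had no read in either ON-BC library, and their calls rest on OFF-BC levels with a median of only 13.9 normalized counts over the 71.

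How many regions passed the test depended on the fit. EdgeR on the recovered reads called 17.7% of the regions higher in OFF-BC (4.69% of all regions tested), and DESeq2 1.37% (0.937% of all regions tested). With only the ON-BC and OFF-BC libraries in the fit the share was 0.611% (0.426% of all), without OFF-BC replicate 1 it was 4.43% (1.28% of all) and without OFF-BC replicate 2 it was 5.50% (1.81% of all). The median log2 fold change of the 655 regions lay between 0.79, with 5 added before the logarithm, and 1.60, with scaling to the library total, over the alternatives run. Regions open in rods and both cone types alone were called higher in OFF-BC at 9.77%, in blue cones alone at 3.42%, in green cones alone at 2.62% and in rods alone at 0.963%.

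**Figure D5:**
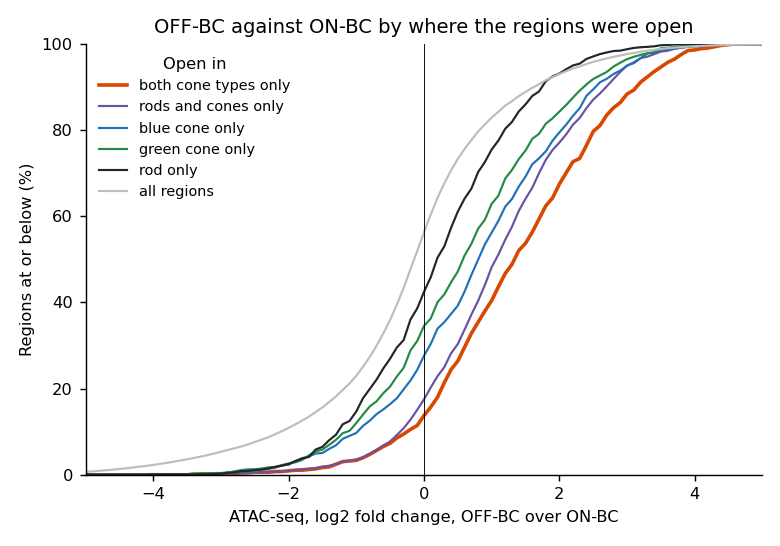
Cumulative share of regions (percent) by their ATAC-seq log2 fold change of OFF-BC over ON-BC, for regions grouped by the populations in which they were open. The curve of the 655 regions open in both cone types only (orange) lies to the right of all regions (grey), with medians of 1.32 and -0.15.

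The promoter region of *Cnga3* and the region of *Rxrg* were among those called higher in OFF-BC. The former had 18.9 and 32.1 normalized counts in OFF-BC and 0 and 2.93 in ON-BC, from 47 and 2 reads, a ratio of 17.96 with an exact 95% interval of 4.70 to 153 that covers counting error only. The latter had 33.7 and 14.6 in OFF-BC and 0 and 2.93 in ON-BC, a ratio of 15.3 (3.96 to 131). At both regions OFF-BC stood between ON-BC and cones, an order that the rule set in part by asking for peaks in cones and none in OFF-BC. The rule used these libraries, so the ratios are a description, and each rests on 2 ON-BC reads.

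The 5 regions with the smallest p lay nearest to *4930534H03Rik*, *Rab27b*, *Sox1ot*, *Mrpl19* and *Wnk2*. The region in *Rab27b*, the gene of a small GTPase of vesicle transport, had 32.3 and 27.3 normalized counts in OFF-BC, 0 and 1.46 in ON-BC and 0 and 1.36 in rods, while blue cones had 113 and 103 and green cones 141 and 159. The intronic region of *Wnk2* (chr13:49082582-49082781) had 21.6 and 20.4 in OFF-BC and no read in ON-BC, at least 4.73-fold higher. The region near *Sox1ot* (chr8:12286242-12286441) had 18.9 and 20.4 in OFF-BC and no read in ON-BC, at least 4.43-fold higher. Near *Mrpl19* (chr6:81969423-81969622) rods had 36.6 and 36.6, above both OFF-BC values of 8.08 and 25.3. The 2 regions called lower in OFF-BC lay near *Zfp773* (0 and 11.7 in OFF-BC, 40.3 and 38.1 in ON-BC) and *Smad2* (5.39 and 1.95 against 35.8 and 29.3), and both calls were lost with either of the other scalings.

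Cone markers moved in the same direction in the RNA. Of the 8 cone markers, 7 were called higher in OFF-BC than in ON-BC and none lower, *Cnga3* being the exception. Of the 6 rod markers, 5 were called lower and none higher. Over all genes tested, 3.60% were called higher and 2.95% lower. In pan-BC the cone markers summed to 44754 to 70999, against 29991 to 104776 in OFF-BC. The ATAC-seq medians at the regions were 6.40 and 5.70 in pan-BC, against 10.8 and 11.7 in OFF-BC. The RNA of *Opn1sw* was 4477, 4314 and 55813 normalized counts in OFF-BC, 822, 772 and 447 in ON-BC and 50740, 28147 and 42310 in pan-BC. The sums thus hide differences between markers. In OFF-BC replicates 1 and 2, *Opn1sw*, *Arr3*, *Pde6h* and *Cnga3* lay below every pan-BC library. *Gnat2* and *Gngt2* lay above every pan-BC library there, and *Opn1mw* and *Pde6c* overlapped. Rod markers summed to 3539 to 17852 in OFF-BC and 19855 to 25016 in ON-BC. The RNA and ATAC-seq libraries are different libraries, and the part of cone material in the OFF-BC levels at the regions was not tested.

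RNA of the nearest genes was called in either direction about equally often. Of the 386 nearest genes tested, 19 were called higher in OFF-BC than in ON-BC (4.92%, against 3.60% of all genes tested) and 20 lower (5.18%, against 2.95%). Of the 44 tested genes nearest to the 71 regions called higher in OFF-BC, 3 were called higher in OFF-BC RNA and 2 lower, while 21 were called higher in blue cones than in rods (47.7%, against 32.1% of the 386 nearest genes and 11.3% of all genes tested). These 44 genes were chosen by the ATAC-seq calls above. *Wnk2* had RNA of 1348, 1194 and 1365 in OFF-BC and 2040, 1386 and 1787 in ON-BC, a difference that did not pass the test.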

How the data were processed

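ATAC-seq and RNA-seq were measured in populations sorted from mouse retina. The authors mapped ATAC-seq reads to GRCm38 using Bowtie2, removed duplicates with Picard, kept fragments too short to span a nucleosome and ran the MACS2 peak caller on every library. For RNA-seq, they aligned reads with STAR and counted them on genes. The deposited tables hold, per library, normalized counts, a signal that the authors made by dividing read counts by 1 size factor. All values above 0 (100.0%) were whole multiples of 1 read within 0.01, and reads were recovered from them. In the deposited peak files the authors list for each peak a MACS2 score, the fold enrichment over local background, the -log10 of the p-value and q-value, and the summit offset (other).

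A region is a row of the table. Nearest genes, promoters and DNA were taken from RefSeq for GRCm38, with the region's midpoint. Of 24062 genes in the RNA table, 23837 matched RefSeq by symbol. Features were kept by edgeR's filterByExpr on recovered reads (14024 genes and 108448 regions, all 655 regions included). Limma 3.58.1 in R 4.3.3 was fitted to log2 of the normalized count plus 1 over all libraries of an assay with 1 level per population, and its treat function tested contrasts for log2 fold changes beyond 1. Adding 1 understates changes of low features. P-values were two-sided and adjusted by Benjamini-Hochberg over all features tested, and features under 0.05 were called. EdgeR 4.0.16 and DESeq2 1.42.0 on recovered reads, other scalings, filters and added constants, left-out replicates and other ways to choose the regions were alternatives. The RNA test of OFF-BC against ON-BC was added after the data were seen. On simulated counts of blue cones against rods, limma called 69 of 100 genes changed 4-fold, 97 of 100 changed 16-fold and 0 unchanged genes.

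Named regions and genes were, by rule, those nearest to genes of the lists, the 8 with the highest double-sorted enrichment, the 10 nearest genes with the largest smaller difference of blue cones from rods and pan-BC, those called lower than both, up to 5 regions with the smallest p in each direction, and regions at promoters of genes called higher in blue cones than in both. The regions, lists and rules were chosen with earlier results of these data known. Deviations of same-numbered libraries from their group means correlated at -0.08 to 0.22, so the numbers were not taken to pair libraries, although ON-BC and OFF-BC libraries of one number share an age. No explanation was tested.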

Additional observations from a re-analysis of the deposited data

How the results depend on the processing

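Directions of the named fold changes held: of 672 alternatives of named genes and regions, 650 kept their direction and call, 22 kept the direction without the call, and 0 reversed. Of 297 alternatives of shares and counts, 244 stayed within 1.5 times. The number of regions was 655 and became 412 with a -log10 q of at least 5 for an open call, 2360 with 1 or more replicates, 380 with double-sorted green cones, 322 with all 4 green cone libraries and, leaving out 1 replicate, 657 to 1176 (1176 without blue cone replicate 1 and 1021 without green cone replicate 2). The share of nearest genes called higher in blue cones than in rods ranged from 23.0% without a filter (6.24% of all genes) to 47.9% without a fold change threshold (30.4% of all genes). The share called lower than in rods became 21.5% without that threshold (27.2% of all genes), 3.02% without a filter (2.38%), 3.21% with double-sorted green cones and 3.16% with all 4 green cone libraries. Against pan-BC, 47.2% were higher and 35.2% lower without the threshold (34.3% and 42.0% of all genes). Between OFF-BC and ON-BC the shares were 21.2% and 19.9% (14.2% and 12.7% of all genes), or 2.64% and 2.83% without a filter (1.83% and 1.48%).

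Between green and blue cones, 0.153% of the regions were called higher and 0.153% lower with edgeR (0.555% and 0.289% of all regions), and 0.305% and 0.153% without the threshold (3.13% and 1.28% of all). The share higher in OFF-BC than in ON-BC (10.8%) was 17.7% with edgeR (4.69% of all regions), 1.37% with DESeq2 (0.937%) and 36.5% without the threshold (10.01%). It was 2.60% with 5 added before the logarithm (1.82%) and 0.611% with only these 2 populations in the fit (0.426%). Leaving out 1 replicate, it was 4.43% to 11.9% (1.28% to 2.97% of all regions). The share lower (0.305%, against 4.58% of all regions) was 0% with DESeq2 (3.48% of all regions), TMM scaling (3.26%) and scaling to the library total (3.26%). It was also 0% with 0.5 added (2.98%) and with only these 2 populations (3.16%), and 1.07% without the threshold (14.3%). Leaving out 1 replicate, it was 0% to 0.305% (1.98% to 3.68% of all regions), with 0.153% without OFF-BC replicate 1 (2.57%). With other ways to choose the regions, it was 0% with double-sorted green cones or all 4 green cone libraries, 0.485% with the stricter q and 0.127% with 1 or more replicates. With the replicate number as a block (replicate block), 10.2% of the regions were higher in OFF-BC (2.76% of all regions). Of the nearest genes, 32.1% were then higher than in rods (11.2% of all genes), and the block moved no share beyond 1.5 times. Scalings to TMM and to the library total moved the median of all regions, OFF-BC over ON-BC, from -0.15 to 0.07 and 0.14, and that of the 655 from 1.32 to 1.51 and 1.60.

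Double-sorted peaks in both libraries fell from 49.2% to 27.6% with regions open in 1 or more replicates, and 85.5% had a peak in at least 1. In windows of 400 bp, words were found in 32.4% (CAGATG), 24.7% (CAGCTG), 7.18% (MAF), 8.55% (MEF2) and 5.50% (CTCF) of the regions, and the CTCF word in 3.35%, 1.32% and 1.24% with 1 or more replicates, double-sorted and all 4 green cone libraries. Promoters held 1.58% and 1.86% with the last 2 and 5.34% with a window from 2000 bp upstream to 500 bp downstream. The cause of these shifts was not tested. With 2 libraries per population, limma called 17 of 100 ATAC-seq changes of 4-fold in the simulation of green against blue cones over all regions tested. Levels of 0 to 3 reads in ON-BC limit every ratio to them.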
